A study of Mus musculus with 6 samples.

Results

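The cytosolic ribosomal proteins are the protein parts of the ribosomes that translate nuclear-encoded messages. Their genes were taken from the RNA-seq table of mouse inguinal lymph nodes by symbol: every Rps or Rpl gene with a number, plus Rpsa and the stalk genes Rplp0, Rplp1 and Rplp2, without pseudogenes named as such and without the Rps6k kinases. Of 89 matching symbols, 83 reached a mean of 1 CPM (reads per 1000000 reads assigned to genes) over the 6 libraries and are called members here, out of 14873 genes at that level. There were 45 large subunit genes, 35 small subunit genes and 3 genes of the acidic stalk. GENCODE M21 annotates 79 of them as protein-coding and the other 4 (Rps3a2, Rps3a3, Rpl6l and Rps4l) as processed pseudogenes, so these 4 are kept under the symbol rule only. The members just inside the limit were Rps3a3 at 2.94 CPM and Rpl6l at 5.33 CPM, and the symbols just outside it were Rpl32l at 0.913 CPM and Rpl28 at 0.871 CPM.

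The study compared 3 libraries labelled Naringin, from mice given the grapefruit flavonoid glycoside naringin at 200 mg/kg per day mixed into the food, with 3 libraries labelled Control. The sources used here do not state the strain, age, sex or feeding time, or what the Control mice ate. No label says that the libraries of a group came from separate animals, so the tests measure only the spread between these libraries, which may be technical. All 6 libraries carried lymph node markers: the B cell receptor component Cd79a lay between 718 and 963 CPM and the T cell receptor component Cd3e between 156 and 248 CPM, while the fat hormone Adipoq reached at most 4.05 CPM.

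Each ribosome holds 1 copy of most of these proteins around its ribosomal RNA, so their mRNAs are among the most abundant of a cell and are made in similar amounts. Their mRNAs begin with a run of C and T letters, the terminal oligopyrimidine (TOP) tract, through which the kinase complex mTORC1 and the RNA-binding protein LARP1 control translation. Lymphocytes that are activated enlarge their ribosome supply before they divide. Several ribosomal proteins also act away from the ribosome, in p53 control, inflammatory gene regulation and lymphocyte development.

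The start regions are shown because of this start tract, and its part in the member levels was not tested. RefSeq promoters (GRCm38.p6, 250 bases before and 50 bases after the annotated start) matched 59 of the 83 members. Each line gives the 30 bases before and the 20 bases from the annotated start. Capitals mark the longest run of at least 5 C or T letters that begins with C within 10 bases of that start. The first 5 genes hold such a run, and the last 3 do not.
Rps27: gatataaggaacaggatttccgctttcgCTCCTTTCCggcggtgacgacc
Rps21: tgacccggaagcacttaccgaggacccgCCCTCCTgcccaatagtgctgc
Rpl38: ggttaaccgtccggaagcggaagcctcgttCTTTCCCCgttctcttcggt
Rpl39: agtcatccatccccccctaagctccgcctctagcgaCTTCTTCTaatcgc
Rpl13a: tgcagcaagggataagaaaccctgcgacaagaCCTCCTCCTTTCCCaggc
Rpl37a: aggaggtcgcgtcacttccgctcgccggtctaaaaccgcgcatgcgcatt
Rps28: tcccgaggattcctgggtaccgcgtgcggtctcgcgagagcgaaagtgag
Rpl7l1: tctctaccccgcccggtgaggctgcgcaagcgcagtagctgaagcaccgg
In GRCm38.p6 the windows lie at chr3:90213629-90213678 (minus strand) for Rps27, chr2:180257349-180257398 (plus) for Rps21, chr11:114668550-114668599 (plus) for Rpl38 and chrX:37085203-37085252 (minus) for Rpl39. The others lie at chr7:45128726-45128775 (minus) for Rpl13a, chr1:72711230-72711279 (plus) for Rpl37a, chr17:33824543-33824592 (minus) for Rps28 and chr17:46782637-46782686 (minus) for Rpl7l1.

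A pyrimidine run by this definition was found at 32 of the 59 member starts (54.2%) and at 3679 of 11298 starts of tested genes (32.6%). The letters CCGGAAG, the core bound by ETS family factors, were found on either strand in 24 of 59 member promoters (40.7%) against 17.2% of those of all tested genes, and can be read in the Rps21 and Rpl38 windows. ATGGCGG, the core bound by YY1, was found in 9 member promoters (15.3%) against 7.76%, and TATAAA in 6 (10.2%) against 7.42%. The reverse complement of CCGGAAG begins with CTTCC and can overlap a pyrimidine run. These are matches of letters in annotated windows, and an annotated start that is off by a few bases hides a run.

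The libraries held 14924805, 14976422 and 14276848 reads assigned to genes in Naringin 1 to 3, and 13074180, 13834251 and 14963386 reads in Control 1 to 3. A read was worth 0.0668 to 0.0765 CPM, so the core members rested on many reads and counting error was small beside the spread between libraries. Control 3 stood apart from the other 5 libraries in ways that touch nearly every result here. The 13 mitochondrial mRNAs summed to between 18156 and 18565 CPM in the Naringin libraries, against 19362 and 19302 CPM in Controls 1 and 2 and 13488 CPM in Control 3. The 4 nuclear-retained RNAs summed to between 1974 and 2242 CPM in the Naringin libraries, against 3208 and 2719 CPM in Controls 1 and 2 and 1156 CPM in Control 3. Counts of genes with a lower mean are given with and without it.

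Across the family, the 79 protein-coding members spanned a wide range of abundance per kilobase of mRNA, with a median of 1760.1 CPM per kilobase over all 6 libraries. The highest was Rps27, a zinc-finger protein of the small subunit, at 5416 CPM per kilobase, followed by the stalk protein Rplp1 at 5100.3 and the large subunit protein Rpl13a at 3689.9 CPM per kilobase. Of 76 members that are neither paralogs nor annotated pseudogenes, the middle of the distribution lay between quartiles of 1362 and 2241 CPM per kilobase. Rps20 stood low among these at 379.7 CPM per kilobase, but its only principal transcript in the annotation is 3706 bases long for a coding length of 357 bases, which lowers its value per length. At the low end stood Rps3a3 at 3.70, Rpl6l at 6.12 and Rps3a2 at 7.37 CPM per kilobase, all annotated as pseudogenes.

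**Figure D1:**
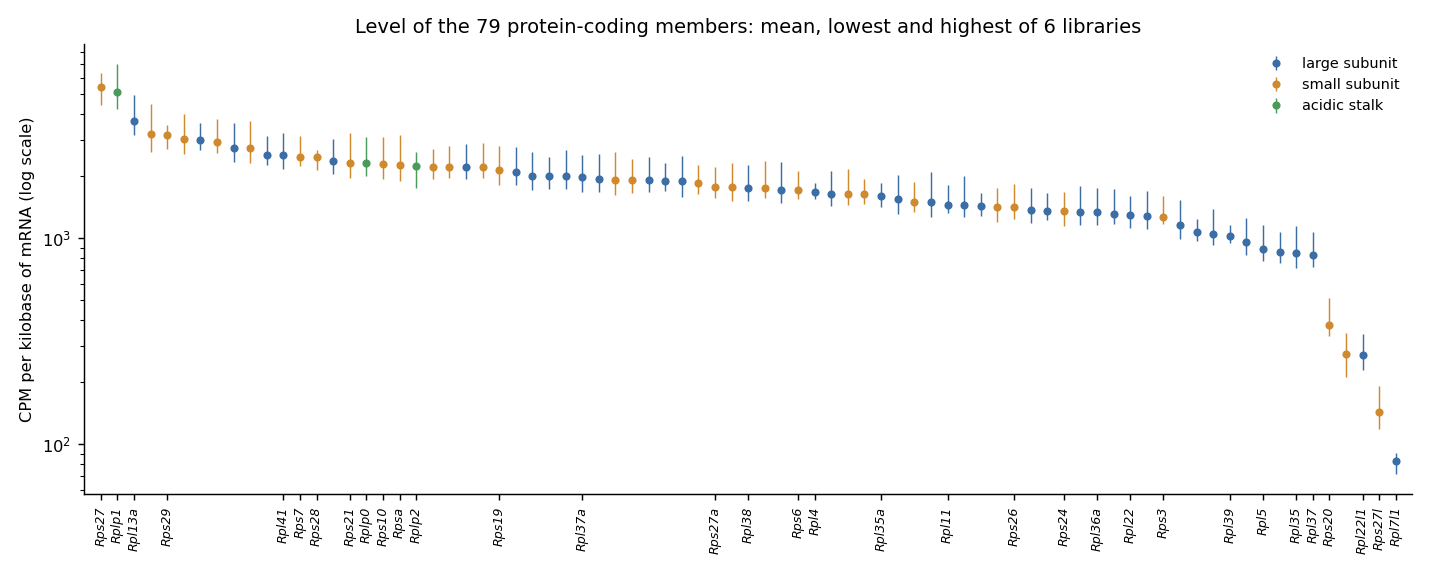
Level of each protein-coding member in CPM per kilobase of its principal mRNA, on a log axis, with the mean of the 6 libraries as a point and the lowest and highest library as a bar; a choice of genes is named on the axis. Rps27, Rplp1 and Rpl13a lead, and the paralogs Rpl22l1, Rps27l and Rpl7l1 lie at the right end below nearly all core genes.

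Naringin was not followed by a change of any ribosomal protein gene that passed the test. The members together took 9.58%, 10.6% and 11.2% of the reads in Naringin 1 to 3, against 10.2%, 9.75% and 14.0% in Control 1 to 3. The Naringin libraries lay within the range of the Controls except for Naringin 1, which was lowest of all, and the high Control value was that of Control 3 alone. The group means were 10.5% ± 0.832 in Naringin and 11.3% ± 2.34 in Control (SD, n = 3 each), a difference of -0.843 percentage points, which is smaller than the SD of the Control libraries. Against the mean of Controls 1 and 2, which was 9.98%, the Naringin mean was higher by 0.502 points. In bulk tissue, fewer cells of a type and less RNA per cell cannot be told apart, so a share of reads speaks for the whole node.

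**Figure D2:**
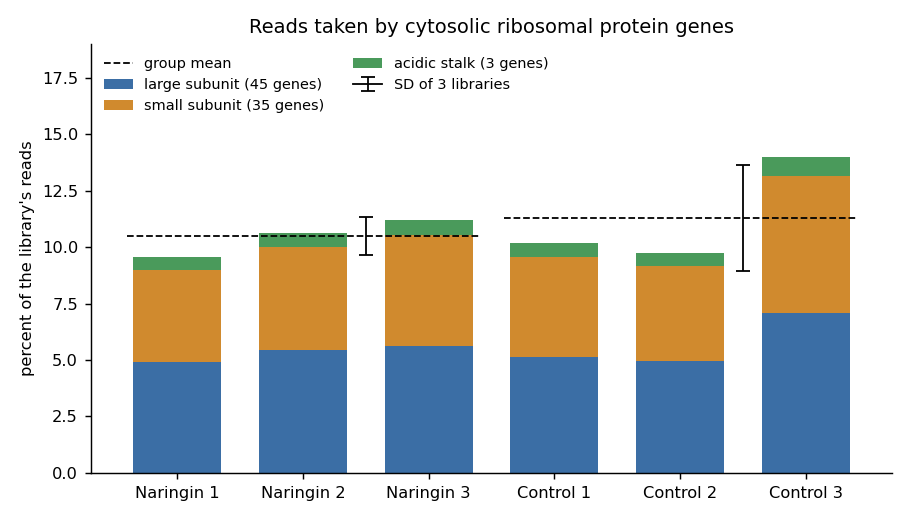
Percent of each library's reads that fell on the 83 members, stacked by large subunit, small subunit and acidic stalk, with the group means as dashed lines and the SD of 3 libraries as bars. The Naringin libraries run from 9.58% to 11.2%, Controls 1 and 2 lie at 10.2% and 9.75%, and Control 3 stands at 14.0%.

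The subunits moved as a block. Large subunit genes took 4.91%, 5.45% and 5.63% of reads in Naringin 1 to 3, against 5.12%, 4.95% and 7.08% in Control 1 to 3. Small subunit genes took 4.10%, 4.55% and 4.89% in Naringin 1 to 3, against 4.45%, 4.22% and 6.05% in Control 1 to 3. Both subunits thus put the libraries in the same order, with Control 3 highest and Naringin 1 lowest.

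Gene by gene, limma on log2(CPM + 1) with Benjamini-Hochberg adjustment over all 14873 genes called 0 of the 83 members, and 0% of all genes. At an unadjusted p under 0.05 it counted 0 members and 213 genes (1.43% of those tested, with 0.457% of those tested lower). The smallest member p was 0.0798, and the smallest adjusted p of any gene was 0.9996. Count tests on the reads recovered from the CPM values called 0 genes with edgeR and 3 with DESeq2, none of them a member. The mean was lower with naringin for 79 members and higher for 4, where 43.3% of all tested genes had a lower mean. The median member log2 fold was -0.09, between -0.31 and 0.16, beside a median of 0.02 over all tested genes, and the median member SE was 0.17.

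This lean to lower values rested on Control 3. Without it, 12 members were lower and 71 higher with naringin, and the median log2 fold was 0.08 over members and 0.00 over all tested genes. That fit called 1 gene (0.00672% of those tested), which was not a member. At an unadjusted limma p under 0.05 it counted 1 member, Rpl7l1, beside 9.35% of all tested genes. Of 83 members, 79 had their highest value in Control 3, where 24.0% of all tested genes did. Among the 78 members at 100 CPM or more, the count was 77. The lowest library was Naringin 1 for 45 members and Control 2 for 29. Expressed as the difference of log2(CPM + 1) from the gene's mean over 6 libraries, the median member lay at -0.16, -0.02 and 0.05 in Naringin 1 to 3, and at -0.09, -0.15 and 0.38 in Control 1 to 3.

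**Figure D3:**
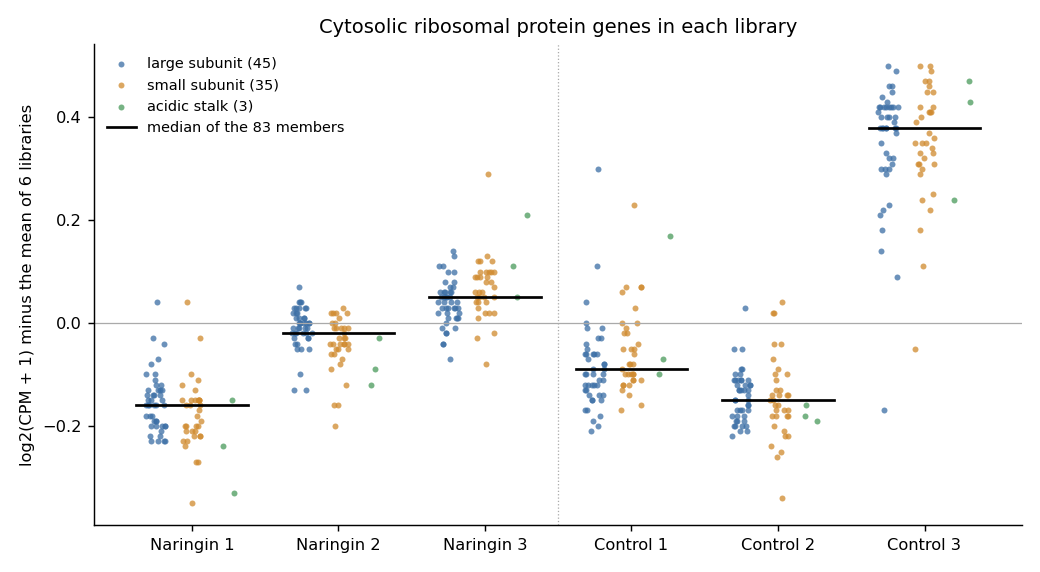
Each point is 1 member in 1 library, as log2(CPM + 1) minus that gene's mean over the 6 libraries, coloured by subunit, with the median of all 83 members as a black line. The clouds are narrow and shift together, with medians of -0.16, -0.02 and 0.05 in Naringin 1 to 3 and of -0.09, -0.15 and 0.38 in Control 1 to 3.

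The size of the Control 3 excess was similar across the family. The ratio of Control 3 to the median of the other 5 libraries had a median of 1.38 over members. It reached 1.56, and was 1.53 for Rpsa. Rpsa, which is also known as a laminin receptor, had 3079.8, 3551 and 3823 CPM in Naringin 1 to 3, against 3297, 3043 and 5056 CPM in Control 1 to 3. The groups overlapped and Control 3 alone was far above the rest. The ratio was lowest for the annotated pseudogenes Rpl6l (0.851) and Rps3a3 (0.934), then for Rpl7l1 (1.03), Rps28 (1.07) and Rps29 (1.12), so the last 2 core genes took little part in the Control 3 excess.

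Rps27 stood near the lower end of the member folds, at a log2 fold of -0.29 ± 0.15 (limma adjusted p = 0.9996). It had 1532, 1654 and 1861 CPM in Naringin 1 to 3, against 2172, 1799 and 2193 CPM in Control 1 to 3. Only Naringin 3 reached above the lowest Control, and without Control 3 the fold was still -0.24. The near-identical gene Rps27rt and other loci share 98.6% of the 50-base words of its transcript, so the reads assigned to it depend on how shared reads were counted.

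Rpl39, a very short protein that lines the exit tunnel of the large subunit, was the only member whose groups did not overlap. It had 593, 579.8 and 595 CPM in Naringin 1 to 3, against 670.2, 601 and 706 CPM in Control 1 to 3. Its log2 fold was -0.16 ± 0.13 (limma adjusted p = 0.9996), and -0.11 without Control 3. Groups that did not overlap with lower values in Naringin made up 2.29% of all tested genes, and with higher values 3.36%, against 1 and 0 of the 83 members.

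Rps21, a small subunit protein, had 776, 806 and 924 CPM in Naringin 1 to 3, against 871, 847 and 1271 CPM in Control 1 to 3. Rpl37a, a zinc-finger protein of the large subunit, had 932, 1002 and 1134 CPM in Naringin 1 to 3, against 1128, 1007 and 1422 CPM in Control 1 to 3. Their log2 folds were -0.23 ± 0.18 and -0.20 ± 0.17 with all libraries, and -0.04 and -0.06 without Control 3. In both genes most of the difference came with Control 3.

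Rps29, a zinc-finger protein of the small subunit head, had 1060.3, 1195 and 1247 CPM in Naringin 1 to 3, against 1256, 1242 and 1386 CPM in Control 1 to 3. Rps28, a neighbour of the mRNA exit, had 583, 644 and 693 CPM in Naringin 1 to 3, against 702, 679 and 724 CPM in Control 1 to 3. Their log2 folds were -0.15 ± 0.13 and -0.14 ± 0.13, and -0.10 and -0.11 without Control 3. The Naringin and Control values of both genes overlapped by a single library, Naringin 3.

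Rpl36a had 557, 633 and 629 CPM in Naringin 1 to 3, against 637, 573 and 846 CPM in Control 1 to 3. Rpl38, a large subunit protein needed for the translation of Hox messages in mouse embryos, had 522, 608 and 587 CPM in Naringin 1 to 3, against 588, 553 and 785 CPM in Control 1 to 3. Their log2 folds of -0.16 ± 0.17 and -0.15 ± 0.16 stood against 0.0036 and 0.0029 without Control 3. None of these genes passed the test, with limma adjusted p = 0.9996 for each.

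Of the 10 members with the smallest p, 7 have a coding sequence under 300 bases, a limit set after their values were seen. In all, 10 members are that short: Rpl37, Rpl37a, Rpl38, Rpl39, Rpl41, Rps21, Rps27, Rps27l, Rps28 and Rps29. Their median log2 fold was -0.15 with all 10 lower, against -0.09 with 67 lower for the other 69 protein-coding members. Without Control 3 it was -0.05, with 6 lower and 4 higher, against 0.09 with 5 lower for the other 69. Each library was also scaled to its median ribosomal protein gene. With all 6 libraries the short members' median was then -0.06 with 8 lower, against 0.00 with 31 lower for the other 69. With Control 3 also left out it was -0.13 with 8 lower, against 0.01 with 22 lower. Before scaling, the short members deviated by a median of -0.20, -0.05 and 0.02 in Naringin 1 to 3. The other 69 deviated by -0.16, -0.01 and 0.05. In Control 1 to 3 the medians were 0.00, -0.11 and 0.37 against -0.10, -0.15 and 0.39. The widest gap lay in Control 1. Across the 79 members, Spearman's rho between fold and coding length was 0.51, and 0.49 without Control 3. With the length of the principal mRNA it was 0.31, with and without Control 3. These points share the same libraries and are not independent, and the list was chosen after its values were seen, so no test is given.

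**Figure D4:**
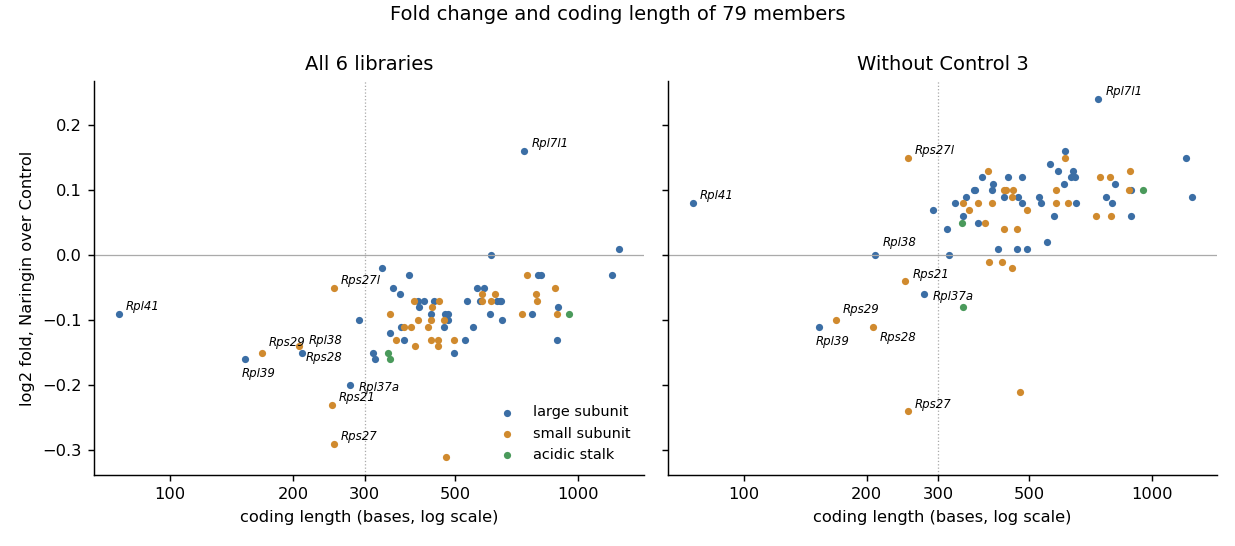
Log2 fold of Naringin over Control for the 79 protein-coding members against coding length on a log axis, with all 6 libraries on the left and without Control 3 on the right; the dotted line marks 300 bases. Nearly all points lie below 0 with all libraries and above 0 without Control 3, while Rps27, Rpl39, Rps28 and Rps29 stay below 0 in both panels.

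The acidic stalk recruits the GTPases that drive initiation and elongation, with Rplp0 as its base and Rplp1 and Rplp2 as its arms. Rplp0 had 2805, 3048 and 3226 CPM in Naringin 1 to 3, against 2916, 2730.1 and 4205 CPM in Control 1 to 3. Rplp1 had 2118, 2357 and 2710.0 CPM in Naringin 1 to 3, against 2387, 2219 and 3479 CPM in Control 1 to 3. Both followed the family, with overlapping groups and Control 3 on top. Rplp2 had 735, 855 and 1072 CPM in Naringin 1 to 3, against 1041, 830.0 and 1097 CPM in Control 1 to 3. It departed from its partners in that Naringin 3 and Control 1 came close to Control 3, and its Naringin 1 value lay among the lowest deviations of the family. Together the 3 genes took 0.566%, 0.626% and 0.701% of reads in Naringin 1 to 3, against 0.634%, 0.578% and 0.878% in Control 1 to 3.

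Rpl5 and Rpl11 form, with the 5S ribosomal RNA, a free particle that binds Mdm2 and stabilises p53 when ribosome assembly fails. Rpl5 had 1585, 1817 and 1879 CPM in Naringin 1 to 3, against 1625, 1650.2 and 2376 CPM in Control 1 to 3. Rpl11 had 1104, 1199 and 1232 CPM in Naringin 1 to 3, against 1122, 1112 and 1509.7 CPM in Control 1 to 3. The pair moved in step, and for both the Naringin 2 and 3 values lay above Controls 1 and 2 and below Control 3.

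Rpl5 and Rpl11 also belong to the 9 members whose human counterparts are mutated in Diamond-Blackfan anaemia, a congenital failure of red cell production, on a list chosen by hand. All 9 had a lower mean with naringin, all 9 were highest in Control 3, and 0 passed the test. Their summed level was 10778, 11885 and 12835 CPM in Naringin 1 to 3, against 11513, 11089 and 15723 CPM in Control 1 to 3. Rps19, the gene most often mutated, had 1144, 1278 and 1443 CPM in Naringin 1 to 3, against 1266, 1226 and 1783 CPM in Control 1 to 3. Rps24 had 1839, 2024 and 2346 CPM in Naringin 1 to 3, against 2162, 1978 and 2718 CPM in Control 1 to 3. Rps19 kept the family's order of libraries, and in Rps24 Control 1 also lay above Naringin 2. Rps7, Rps10, Rps26 and Rpl35a lay between 699 and 2092 CPM in Naringin and between 717 and 2565 CPM in Control. Without Control 3, 1 of the 9 was lower.

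Another 5 members are known for roles outside the ribosome in immune cells: Rpl13a in the interferon-gamma-dependent silencing of inflammatory messages, Rps3 as a partner of NF-kB, Rpl22 and its paralog Rpl22l1 in T cell development, and Rpsa as a cell surface receptor. Rpl13a had 3355, 3786 and 3985 CPM in Naringin 1 to 3, against 3518, 3318 and 5217 CPM in Control 1 to 3. Rps3 had 2232, 2386 and 2363 CPM in Naringin 1 to 3, against 2226, 2245 and 3062 CPM in Control 1 to 3. Rpl22 had 567, 628 and 631 CPM in Naringin 1 to 3, against 531, 594 and 757 CPM in Control 1 to 3. All 5 were lower on average with all libraries and 0 were lower without Control 3, and 0 passed the test.

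Rps6, the small subunit protein phosphorylated by S6 kinase downstream of mTORC1, had 1383, 1521 and 1559.9 CPM in Naringin 1 to 3, against 1379, 1364 and 1854 CPM in Control 1 to 3. Rps27a, which is made as a fusion with ubiquitin, had 1014, 1090.0 and 1162 CPM in Naringin 1 to 3, against 1119, 999.9 and 1404 CPM in Control 1 to 3. In both genes the groups overlapped, and these are mRNA levels that say nothing of phosphorylation or protein.

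Of 10 listed paralogs, 9 were in the table and 6 were members, of which 3 were highest in Control 3, 3 had a lower mean and 0 had a lower mean without Control 3. Rpl7l1, a nucleolar paralog of Rpl7, had 111, 113 and 119 CPM in Naringin 1 to 3, against 99.3, 94.3 and 115 CPM in Control 1 to 3. It was the member with the highest fold, 0.16 ± 0.12 with all libraries and 0.24 without Control 3 (limma adjusted p = 0.9996 with all libraries). Its Naringin values lay above Controls 1 and 2, and Control 3 lay within them. Rpl22l1 had 126, 149 and 164 CPM in Naringin 1 to 3, against 136, 136 and 189 CPM in Control 1 to 3, and so followed the core genes.

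Rps27l, a paralog of Rps27 that p53 induces, had 73.0, 69.6 and 67.1 CPM in Naringin 1 to 3, against 67.0, 59.1 and 95.7 CPM in Control 1 to 3. Its Naringin values were close together and lay between Control 1 and Control 3. Rps3a2, Rps3a3 and Rps4l, annotated as pseudogenes, lay between 2.68 and 8.48 CPM in Naringin and between 2.75 and 10.4 CPM in Control, with overlapping groups. Rps3a3 rested on 40 to 47 reads in a Naringin library and 38 to 42 in a Control library.

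Mouse ribosomal protein genes have many processed copies in the genome, and reads are shared with them. Of the 83 members, 54 share at least 50% of their transcript's 50-base words with transcripts of other genes, and the median is 62.2%. The table held 321 rows named as ribosomal pseudogenes, 66 of them with a mean of at least 1 CPM. Summed, they had 275, 296 and 326 CPM in Naringin 1 to 3, against 294, 266 and 397 CPM in Control 1 to 3. These rows ordered the libraries much as the members did, with Control 3 highest, at a small part of the members' level. Exons of other genes also overlap those of some members. On the same strand they cover 91.6% of the exon bases of Rps10 (RPS10-NUDT3), 71.5% of Rpl24 (Gm28037) and 59.3% of Rpl13a (Gm45713 and Mir5121). On the opposite strand they cover 68.3% of Rpl35 (Arpc5l and Wdr38) and 55.4% of Rpl23a (Tlcd1).

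The lists of neighbouring pathways were chosen with earlier results of these data known. Ribosomal constituents outside the symbol rule include Fau, made as a fusion with a ubiquitin-like protein, the scaffold protein Rack1 and Rpl36al. These 3 genes were all highest in Control 3. Fau had 1277, 1432 and 1568 CPM in Naringin 1 to 3, against 1429, 1264 and 1953 CPM in Control 1 to 3, as the members did. All 6 elongation factors were also highest in Control 3. Their mean was lower with naringin for 6 with all libraries and for 0 without Control 3, and 0 passed the test. Eef1a1, which carries aminoacyl-tRNA to the ribosome and has a TOP mRNA, had 11089, 11003 and 10969.6 CPM in Naringin 1 to 3, against 10911, 11000.2 and 12276 CPM in Control 1 to 3. Its Control 3 excess was smaller than that of nearly all members.

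Other classes of the translation machinery are given by their counts, and no difference between classes was tested. Of 27 initiation factors, 12 were lower and 15 higher with naringin, 6 were lower without Control 3, 14 were highest in Control 3, and the median log2 fold was 0.01. Of 10 other TOP mRNAs, 4 were lower and 6 higher, 2 were lower without Control 3, and 5 were highest in Control 3. Of 78 mitochondrial ribosomal proteins, which build the separate ribosomes of mitochondria, 46 were lower and 62 were highest in Control 3. Without that library 10 of them were lower and their median log2 fold was 0.12, against -0.02 with all libraries, so their direction turned as that of the members did. The members' median deviation in Control 3 was 0.38, against 0.26 for the mitochondrial ribosomal proteins, a difference that was not tested. Of 10 snoRNA host transcripts, which resemble ribosomal protein mRNAs in their TOP starts, 8 were lower and 10 were highest in Control 3. Without Control 3, 4 were lower and their median log2 fold was 0.02, against -0.07 with all libraries. The host Gas5 had 218, 234 and 258 CPM in Naringin 1 to 3, against 243, 239 and 278 CPM in Control 1 to 3. In none of these lists did a gene pass the test.

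The genes that build ribosomes were mostly higher on average. Of 38 ribosome biogenesis factors, 30 had a higher and 8 a lower mean in Naringin, and 9 a lower mean without Control 3. Of all 14873 tested genes, 43.3% had a lower mean with all libraries, and 7394 genes had one without Control 3. The median fold was 0.06 on the log2 scale, and 0 passed the test. Without Control 3 the median was 0.08 over members and again 0.06 over biogenesis factors, so both then leaned the same way. Gnl3, a nucleolar GTPase, had 64.3, 64.8 and 62.5 CPM in Naringin 1 to 3, against 53.4, 60.1 and 49.9 CPM in Control 1 to 3, without overlap of the groups (log2 fold 0.23 ± 0.12, limma adjusted p = 0.9996). Dimt1, which methylates the small subunit RNA, had 16.1, 18.8 and 16.7 CPM in Naringin 1 to 3, against 13.8, 15.3 and 15.2 CPM in Control 1 to 3. Its groups did not overlap either. Both genes are given because they had the smallest p of their list. Among all tested genes, 3.36% had groups that did not overlap with higher values in Naringin.

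Of 20 regulators of TOP translation and mTORC1, 13 were higher and 7 lower with naringin, 10 were lower without Control 3, 0 passed the test and 3 were highest in Control 3. Ddit4, a stress-induced inhibitor of mTORC1, had 165, 214 and 213 CPM in Naringin 1 to 3, against 92.1, 108 and 147 CPM in Control 1 to 3. All Naringin values were above all Control values, as they were for 3.36% of all tested genes. The log2 fold was 0.78 ± 0.20, with a limma unadjusted p of 0.00371 and an adjusted p of 0.9996.

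Whether transcript length moves with the library was examined in each library by the slope of a gene's deviation on log2 exon length, the total of all annotated exons, so that a slope is the change per doubling of length. Over the 13956 tested genes with a length the slopes were 0.033, 0.011 and -0.006 in Naringin 1 to 3, and 0.030, 0.059 and -0.127 in Control 1 to 3. Control 3 alone had a clear negative slope, in which long transcripts read low and short ones high. The group means were 0.013 ± 0.020 in Naringin and -0.013 ± 0.10 in Control (SD, n = 3 each). The difference of 0.025 had an exact two-sided permutation p of 0.90, where the smallest that 3 against 3 libraries can give is 0.10. Without Control 3 the difference was -0.032.

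Within the family there was hardly any such trend. Over the 83 members the slopes were 0.001, 0.018 and 0.005 in Naringin 1 to 3, and -0.037, -0.000 and 0.013 in Control 1 to 3. Over the 79 protein-coding members they were 0.006, 0.017 and 0.013 in Naringin 1 to 3. In Control 1 to 3 they were -0.026, -0.001 and -0.009, all below the Naringin slopes. Control 3 was thus hardly tilted within the family: its members lay high at every length. By the length of the principal mRNA, members deviated in Control 3 by a median of 0.39 under 500 bases (18 genes), 0.38 from 500 to under 1000 bases (43 genes) and 0.40 from 1000 to under 2000 bases (16 genes). Rpl5 and Rps20, the only longer ones, had a median of 0.42. Other tested genes deviated in Control 3 by 0.33, 0.28 and 0.16 in the same 3 bins, by -0.04 from 2000 to under 4000 bases and by -0.30 at 4000 bases and over.

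**Figure D5:**
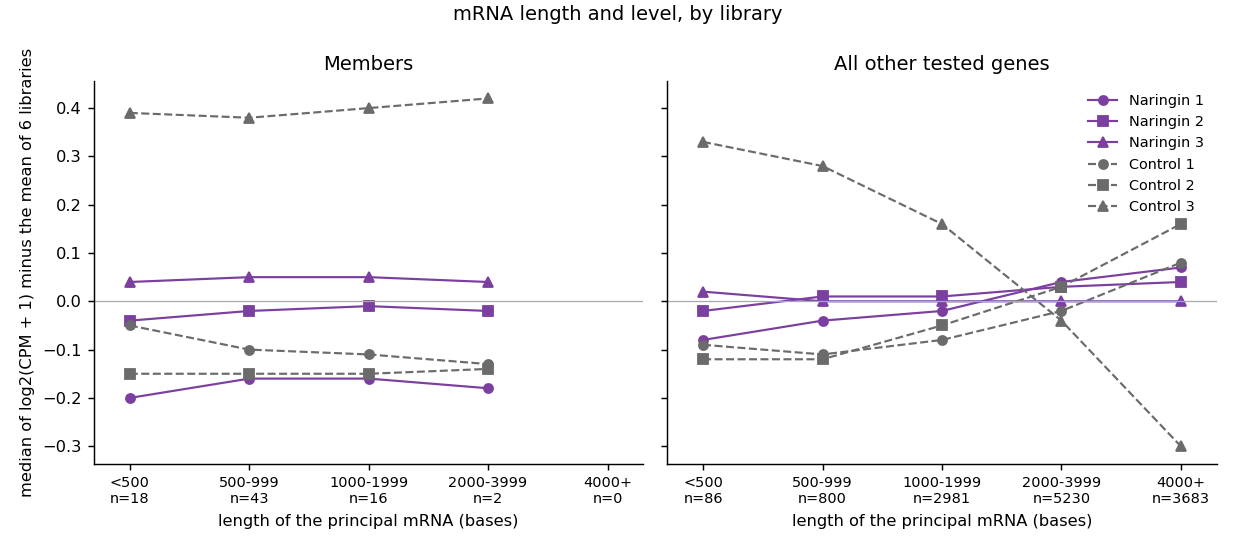
Median deviation of genes by length of the principal mRNA, a line for each library (Naringin solid, Control dashed), with the 83 members less 4 without a coding mRNA on the left and all other tested genes on the right. In Control 3 the other genes fall with length to -0.30 at 4000 bases and over, while the members stay near 0.39 at every length; the bin of 2000 to under 4000 bases holds only 2 members.

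Removing each library's own trend on total exon length left the median member at -0.15, -0.02 and 0.05 in Naringin 1 to 3, and at -0.03, -0.11 and 0.23 in Control 1 to 3. With the length of the principal mRNA in its place, it lay at -0.12, -0.02 and 0.05 in Naringin 1 to 3, and at 0.01, -0.06 and 0.12 in Control 1 to 3. The Control 3 excess of 0.38 was therefore reduced and did not vanish under either length. The correction of the folds on principal mRNA length was added after the data were seen. The member median of the log2 fold was -0.08 and -0.06 after the corrections, with 78 and 74 members lower. With total exon length corrected and Control 3 left out it was 0.04, with 20 members lower.

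By coding length, the member slopes were 0.020, 0.027 and 0.015 in Naringin 1 to 3, and -0.054, -0.016 and 0.009 in Control 1 to 3, a difference of 0.041. The Naringin slopes were all above the Control slopes. These slopes carry the same short members as the fold changes above, so they restate that difference and do not add to it.

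Cell type markers and RNA quality genes were read beside the Control 3 excess, by their summed level over each list. The 10 macrophage markers summed to 3129, 2090.4 and 1107 CPM in Naringin 1 to 3, against 1453, 1639 and 2985 CPM in Control 1 to 3. Control 3 and Naringin 1 were thus alike and high, while the members were highest in Control 3 and lowest in Naringin 1. The 6 plasma cell markers summed to 345, 317 and 279.7 CPM in Naringin 1 to 3, against 241, 299 and 435 CPM in Control 1 to 3, with Control 3 highest. The 8 B cell markers summed to 3429, 4228 and 4209.9 CPM in Naringin 1 to 3, against 3434, 3845 and 3456 CPM in Control 1 to 3. Of these B cell markers 7 had a higher and 1 a lower mean with naringin, and 2 a lower mean without Control 3. The 8 T cell markers summed to 1762, 1637 and 2101 CPM in Naringin 1 to 3, against 2155, 1995 and 2186 CPM in Control 1 to 3. All 8 T cell markers had a lower mean with naringin, with and without Control 3. Their median log2 fold was -0.21, and -0.18 without Control 3. Of them 1 had an unadjusted limma p under 0.05 with all libraries, beside 1.43% of all tested genes, and 0 passed the adjusted test. The 7 cycling cell markers lay between 426 and 480.1 CPM in Naringin and between 420.0 and 433 CPM in Control. The 7 naive lymphocyte markers summed to between 2009.8 and 2301 CPM in Naringin and between 1883 and 2355 CPM in Control. The groups overlapped in all of these lists. The markers of tissue around and within the node were uneven too. The 9 stroma markers summed to 2537, 1829 and 1457 CPM in Naringin 1 to 3, against 1429, 1697 and 2497 CPM in Control 1 to 3. The 8 adipocyte markers summed to between 96.6 and 141 CPM in Naringin and between 127 and 182 CPM in Control. All 6 tested adipocyte markers had a lower mean with naringin, 5 had one without Control 3, and 0 passed the test. The sums separated the groups in 2 lists. The 6 erythrocyte markers summed to 55.3, 59.1 and 56.2 CPM in Naringin 1 to 3, against 35.8, 32.1 and 50 CPM in Control 1 to 3. Of their 5 tested genes all were higher with naringin, by a median log2 fold of 0.49, and 0 were lower without Control 3. At an unadjusted limma p under 0.05 there were 3, beside 1.43% of all tested genes, and 0 passed the adjusted test. The 8 endothelium markers summed to 1115, 972 and 953 CPM in Naringin 1 to 3, against 616, 933 and 797 CPM in Control 1 to 3. Of these 8 markers 7 were higher and 1 lower with naringin, 2 were lower without Control 3, and 0 passed. Neither list was highest in Control 3, where the members were. No list had a marker at 0 over all libraries, and the part of these cells, of mitochondrial mRNAs and of nuclear-retained RNAs in the member levels was not tested.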

How the data were processed

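Total RNA of 6 lymph node samples was purified and made into libraries with the NEBNext Ultra kit, per the labels' protocols. The tools Trimmomatic 0.39, STAR 2.7.9a, featureCounts (Subread 1.6.0) and edgeR 3.40.0 and the build mm39 are listed in the submitters' processing notes. The sources used here give neither the annotation nor the strand setting. The authors deposited CPM for 50559 genes, each column summing to 1000000. All values above 0 were whole multiples of 1 read within 0.01 of a read.

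Rows whose mean reached 1 CPM were tested on log2(CPM + 1) with limma 3.58.1 (trend, robust, two-sided, threshold 0.05) in R 4.3.3, and on recovered reads with edgeR 4.0.16 and DESeq2 1.42.0. Fold changes are Naringin over Control on the log2(CPM + 1) scale, with limma's moderated SE. Lengths came from GENCODE M21 (93.8% of tested genes matched by symbol). That annotation is of GRCm38, so no coordinates of the deposited table are given. The fit was tested on simulated data.

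Members and lists were chosen with earlier results of these data known. Members named are the 10 with the smallest p, the 3 highest and 3 lowest per kilobase, those on role lists, those farthest from their mean in Control 3 or Naringin 1, and those at the level limit. Pathway genes with values are among the 2 with the smallest p of their list, plus Gas5 and Eef1a1. Rps20, Rpl35, Rpl24 and Rpl23a were added after their values were seen. A few genes under these rules are left out of the text.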

Additional observations from a re-analysis of the deposited data

How the results depend on the processing

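No member was called under any alternative tried: other pseudocounts, filters, scalings, count tests, length corrections, a replicate block and leaving out each library. The number of genes called was 3 with DESeq2, 1 with exon length correction and Control 3 left out together, and 0 to 1 when libraries were left out in turn. The members with a lower mean numbered 20 with exon length correction and Control 3 left out. When single libraries were left out they numbered 12 (without Control 3) to 81 (without Naringin 3). After scaling to the median ribosomal protein gene they numbered 40, and 32 with Control 3 also left out. That scaling itself sets the median member fold near 0 (0.00 and 0.01), so these counts cannot show the direction of the members. Leaving out 1 library moved the median member log2 fold between -0.19 (without Control 2) and 0.08 (without Control 3), with -0.03 without Naringin 1. The difference in share of reads ran from -1.63 to 0.502 percentage points, the slope difference over all genes from -0.032 to 0.061 and over members from 0.001 to 0.027. By coding length the member slope difference was 0.041. The folds of Rpl36a (-0.28 to 0.0036) and Rpl38 (-0.25 to 0.0029) changed sign without Control 3. Deviations of same-numbered libraries from their group means correlated at -0.26, -0.02 and -0.27, and those of different-numbered libraries at -0.13 to 0.31. Deviations within a group of 3 are tied to each other, so these values cannot decide whether equal replicate numbers pair the libraries. With the replicate block 0 members were called, 79 were lower and the median was -0.09. The scaling to the median ribosomal protein gene and the alternatives with principal mRNA length or coding length were chosen after seeing the data. With 3 libraries in each group, the median member SE of 0.17 limits what could pass the test.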

Other observations

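Below the level limit lay 6 matching symbols. Rpl10l, a testis paralog, had 0 reads in every library, and a count of 0 allows up to 3 reads, or 0.20 to 0.23 CPM. Rpl39l, another paralog active in the testis, had 7, 15 and 11 reads in Naringin 1 to 3, against 5, 11 and 23 reads in Control 1 to 3. Rpl28 encodes a core protein of the large subunit, yet had 10, 15 and 14 reads in Naringin 1 to 3, against 10, 13 and 13 reads in Control 1 to 3. In GENCODE M21 no other gene overlaps its exons, and 50.5% of its 50-base words are shared with other genes.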
